A study of Mus musculus with 54 samples.

Results

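The voltage-gated calcium and sodium channel genes were taken as every gene of the count files whose symbol begins with Cacna, Cacnb or Cacng, or reads Scn followed by a number and a or b. The rule used gene names and no measured value, and it left out the epithelial sodium channel genes (Scnn1). It found 40 of 54232 listed genes. These comprised 10 pore-forming calcium channel genes, 4 α2δ genes, 4 calcium channel β genes, 8 γ genes, 10 pore-forming sodium channel genes and 4 sodium channel β genes.

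Voltage-gated channels open when the membrane depolarises. Sodium channels carry the rapid upstroke of the action potential in neurons and muscle, and calcium channels turn the depolarisation into calcium entry, which triggers transmitter release in nerve endings and contraction in heart muscle. A pore-forming α1 protein determines the current type: L-type (Cacna1c, Cacna1d, Cacna1f, Cacna1s), P/Q-type (Cacna1a), N-type (Cacna1b), R-type (Cacna1e) or T-type (Cacna1g, Cacna1h, Cacna1i). Calcium channel β proteins bind the pore inside the cell and bring it to the membrane, α2δ proteins do so from outside, and sodium channel β proteins are membrane-spanning partners that also act in cell adhesion. Most γ proteins of the brain are better known as auxiliary proteins of AMPA glutamate receptors.

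RNA was sequenced from male mice given Cmpd60, a selective inhibitor of the histone deacetylases HDAC1 and HDAC2, or vehicle, by intraperitoneal injection at 22.5 mg/kg once a day for 14 days. Aged BL6 mice of 20 months gave brain (6 Cmpd60, 6 vehicle libraries), heart (5 and 6) and kidney (6 and 5). In a second cohort, brains came from APPSWE-1349 mice (APPSWE below), which carry a human APP transgene with the Swedish mutation on a BL6 background (4 Cmpd60, 5 vehicle), and from their littermates without it, the AD-control mice (5 and 5). The design text gives this cohort an age of 6 to 7 months, whereas the growth protocol attached to each sample says 20 months. The labels name no region within the brain and no chamber of the heart, and they do not tie libraries of different tissues to a mouse.

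For kidney, the treatment field of the labels contradicts the sample titles. The titles were followed here. If the treatment field were right, every kidney direction of Cmpd60 against vehicle below would turn. The kidneys called vehicle in the levels and tissue comparisons would then be treated ones, and the differences in response that involve kidney would change too. For 1 APPSWE library the labels say vehicle but the study's own table heading says compound. This disputed library was therefore kept as a group of its own and is shown by its own values. It enters no comparison below except in alternatives that say so. Library totals were 23584609 to 57430113 counts for the aged mice and 25052335 to 55871402 counts for the APPSWE cohort. In that cohort each library detected between 15044 and 24821 genes, with medians of 18518 (APPSWE vehicle), 22604.5 (APPSWE Cmpd60), 19669 (AD-control vehicle) and 23014 (AD-control Cmpd60). The medians were thus higher with Cmpd60 in both genotypes, but the ranges overlapped. They were 16402 to 23402 against 15555 to 20277 in APPSWE mice and 15084 to 24821 against 15044 to 23151 in AD-control mice. Markers placed each aged tissue with its label: the summed level of 9 neuronal genes was 5228 to 6080 CPM (counts scaled to a common library total) in vehicle brains and at most 91.01 in vehicle hearts, 5 cardiomyocyte genes reached 58900 to 68270 CPM in vehicle hearts, and 4 proximal tubule genes reached 6404 to 8005 CPM in vehicle kidneys.

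The first question was which channel genes each aged tissue expressed without the drug. In vehicle mice, 34 members reached a mean of 1 CPM in brain, 23 in heart and 16 in kidney. Cacng1, Cacng3 and Cacng8 had no count in any vehicle heart, and Cacng2, Cacng3, Cacng6 and Scn10a had none in any vehicle kidney. The highest mean lay in brain for 30 members and in heart for the other 10 (among them Cacna1c, Cacna1h, Cacna1s, Cacna2d1, Cacnb2, Cacng6, Scn4a, Scn7a and Scn10a), and for 37 of the 40 the leading tissue differed from both others at an adjusted p under 0.05. Kidney led for 0 members.

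**Figure D1:**
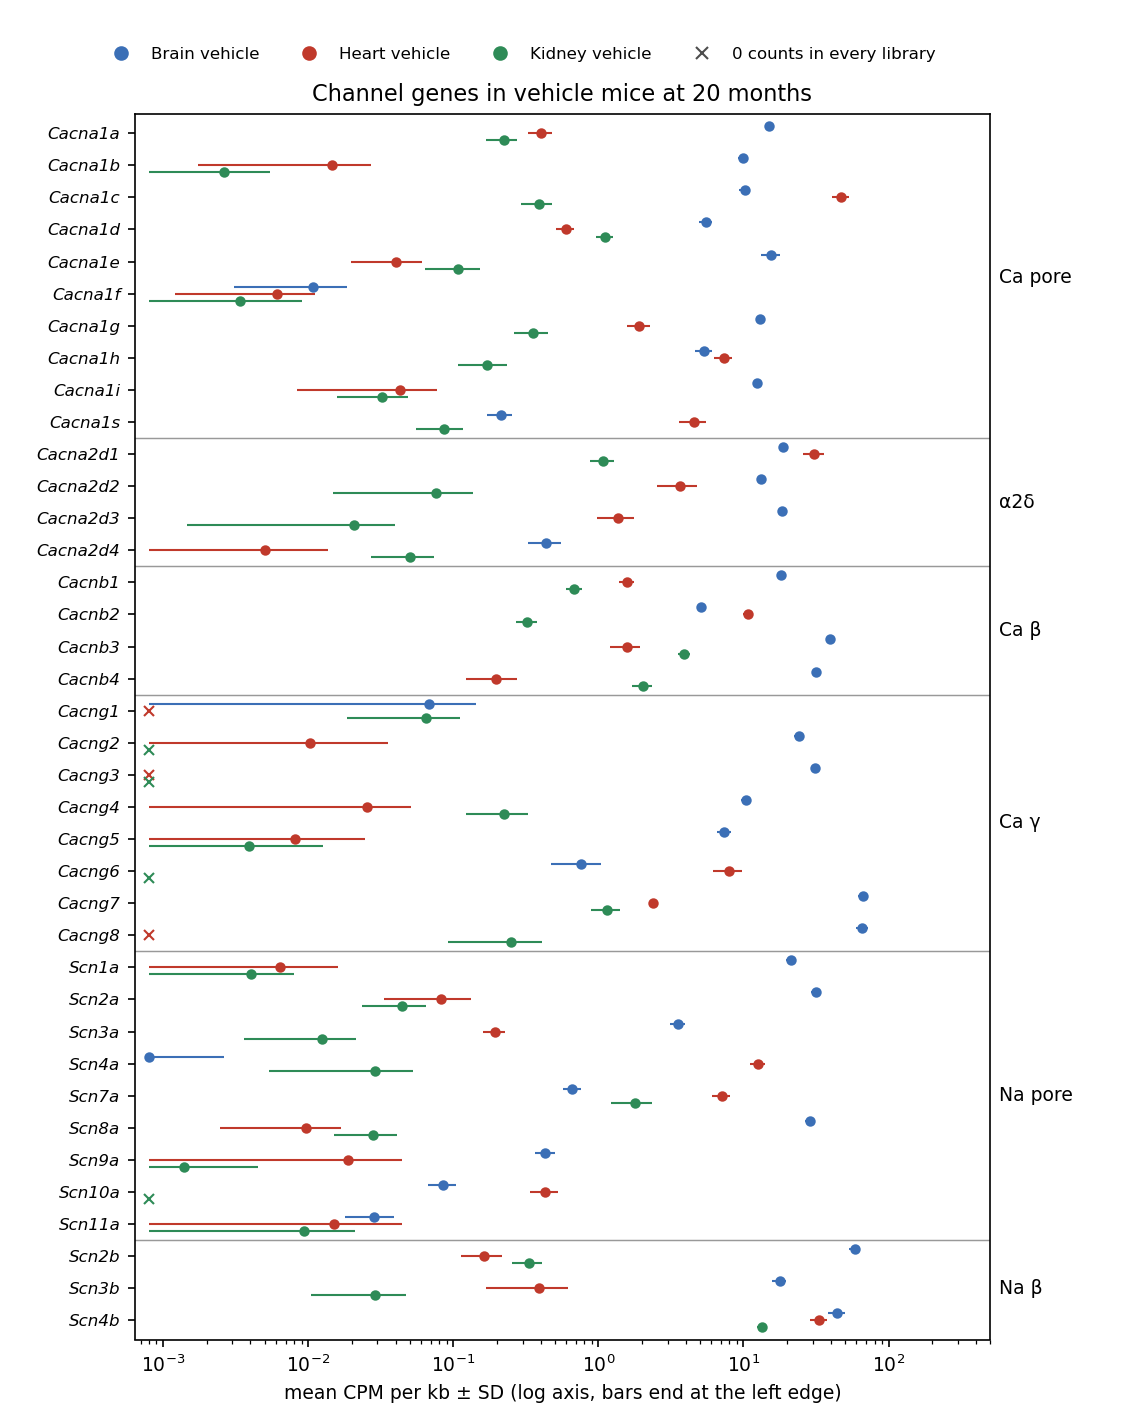
Mean CPM per kilobase of exon (log axis) with SD for 38 channel genes, grouped by role, in vehicle mice at 20 months: brain (blue, n = 6), heart (red, n = 6) and kidney (green, n = 5). Crosses at the left edge mark genes with no count in any library of that tissue, and bars that reach the edge continue below it. The heart points stand to the right of brain for Cacna1c, Scn4a and Cacna1s, and the kidney points stand at the lowest of the 3 levels for most genes.

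By edgeR's quasi-likelihood test with Benjamini-Hochberg adjustment over all genes, 28 members were higher in brain than in heart and 10 lower, beside 72.1% of all genes called in either direction, 43.2% higher and 28.9% lower. The groups did not overlap for 37 members, beside 55% of all genes. Against kidney, brain was higher for 35 and lower for 2 (Scn4a and Scn7a), beside 72.5% of all genes called, 39.8% higher and 32.8% lower, and the groups did not overlap for 36, beside 59.6%. Heart was higher than kidney for 23 and lower for 10, beside 56.7% of all genes called, 25.6% higher and 31.1% lower, and the groups did not overlap for 27, beside 41.5%. The median log2 difference of the members was 4.38 for brain over heart and 5.68 for brain over kidney, against 0.44 and 0.24 over all genes tested. Where a tissue held no count, only a lower bound can be given, set by 3 counts in its shallowest library: brain Cacng2 (133 CPM) was at least 1190-fold above kidney, brain Cacng3 (47.3 CPM) at least 301-fold above heart and brain Cacng8 at least 277-fold above heart.

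Among the pore-forming calcium channel genes, brain expressed a mixture and heart mainly the cardiac L-type gene. Levels of different genes were compared as CPM per kilobase of exon. In brain, Cacna1e stood at 15.5 ± 2.25 CPM per kb (SD, n = 6), Cacna1a at 14.96 ± 0.885, Cacna1g at 13.1 ± 0.738 and Cacna1i at 12.5 ± 0.900. The R-type and P/Q-type genes thus differed by less than their spread, and no gene exceeded 17.8% of the summed per-length level of this role. Cacna1e read 160 to 245 CPM in the 6 vehicle brains, with a median of 193. In heart, Cacna1c held 76.1% of that sum. It read 369, 486, 359, 426, 379 and 478 CPM in libraries 62 to 67, against 89.9 ± 7.55 CPM in brain and 3.41 ± 0.819 in kidney (log2 difference of brain over heart -2.21, SE 0.13, adjusted p = 1.77e-17). The T-type gene Cacna1h followed in heart at 71.5 ± 10.2 CPM. Cacna1s, the L-type pore of skeletal muscle, was found in heart at 29.7 ± 6.26 CPM and in brain at 1.39 ± 0.275 CPM, and the difference passed the test (-4.42, SE 0.28, adjusted p = 1.56e-16). In kidney, Cacna1d led with 44.9% of the sum, at 11.7, 11.3, 8.21, 9.84 and 11.1 CPM in libraries 45 to 49. The remaining brain pores were Cacna1b (98.6 ± 7.67 CPM), Cacna1d (51.4 ± 5.64) and Cacna1h (52.4 ± 6.94). In heart Cacna1g stood at 19.2 ± 3.49 CPM, Cacna1d at 5.59 ± 0.798 and Cacna1a at 4.59 ± 0.868. In kidney Cacna1g stood at 3.58 ± 0.941 CPM, Cacna1a at 2.53 ± 0.605, Cacna1h at 1.68 ± 0.623 and Cacna1e at 1.38 ± 0.566. Cacna1f, the retinal L-type gene, had a mean of 0.0980 CPM in brain and lower means in the other tissues.

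The auxiliary calcium channel genes divided in the same way. Of the α2δ genes, Cacna2d1, which encodes the binding protein of gabapentin, was the leading member in every tissue, at 158 ± 9.37 CPM in brain, 258 ± 41.6 in heart and 9.03 ± 1.64 in kidney. It made up 86% of the α2δ per-length sum in heart and 88% in kidney. In brain, Cacna2d1 (18.9 ± 1.117 CPM per kb) and Cacna2d3 (18.4 ± 0.831) did not differ beyond their spread. Cacna2d2 followed with 79.6 ± 3.78 CPM in brain and 22 ± 6.72 in heart, Cacna2d3 had 5.04 ± 1.42 CPM in heart, and Cacna2d4 had 2.54 ± 0.646 CPM in brain and 0.293 ± 0.135 in kidney. Of the β genes, Cacnb3 led per length in brain with 118 to 129 CPM in the 6 libraries and in kidney with 13.3, 13.4, 11, 11.3 and 11.8 CPM, whereas Cacnb2, the β gene of cardiac L-type channels, led in heart with 97.0, 98.4, 102, 85.4, 106 and 107 CPM. Cacnb2 was the only β gene higher in heart than in brain (log2 difference -1.09, SE 0.12, adjusted p = 1.04e-09), and the other 3 were higher in brain. Cacnb4, second per length in brain and kidney, stood at 284.5 ± 16.9 CPM in brain, 18.1 ± 2.71 in kidney and 1.77 ± 0.669 in heart. Cacnb1 stood at 82.7 ± 2.36, 3.09 ± 0.397 and 7.12 ± 0.830 CPM in the same order, and Cacnb2 at 46.7 ± 1.30 CPM in brain and 2.99 ± 0.492 in kidney.

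Of the 8 γ genes, 7 were higher in brain than in heart. In brain Cacng7 read 127 to 162 CPM, Cacng2 133 ± 10.7, Cacng3 47.3 ± 2.86, Cacng8 43.4 ± 4.16, Cacng4 37.3 ± 2.87 and Cacng5 28.2 ± 3.07 CPM. Cacng7 was the γ gene of kidney, at 3.36, 2.39, 2.01, 2.83 and 2.08 CPM, and stood at 5.29 ± 0.308 CPM in heart. The gene models used for length are short for Cacng8 and Cacng6, so the per-length order within this role is uncertain. Cacng6 reversed the pattern: it read 3.61, 6.89, 6.00, 7.55, 6.25 and 7.18 CPM in the vehicle hearts, 0.590 ± 0.222 CPM in brain and 0 in every vehicle kidney, where the bound for heart over kidney is at least 55.8-fold. Cacng7, Cacng8 and Cacng6 are neighbours on chromosome 7, so adjacent genes of this family had opposite tissue orders.

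Among the sodium channel pores, brain expressed mainly Scn2a, Scn8a and Scn1a. Scn2a read 267 to 330 CPM in vehicle brain (31.8 ± 2.45 CPM per kb), Scn8a 320 ± 24.3 CPM (28.9 ± 2.199 per kb) and Scn1a 236 ± 18.1 CPM (21.3 ± 1.64 per kb), and these made up 36.2%, 33% and 24.3% of the per-length sum in that order. Scn2a and Scn8a overlapped within their spread. Scn4a, the skeletal muscle sodium channel, stood in heart at 88.2 ± 10.3 CPM, while brain had 1 count in 1 of 6 vehicle libraries. The 6 skeletal muscle markers (Myh1, Myh2, Myh4, Tnnt3, Tnni2 and Actn3) summed to 2.41 to 4.20 CPM in these hearts, and Cacng1, the γ gene of skeletal muscle, was at 0 in all 6. Scn7a, a sodium channel relative described as a sodium sensor, was the main pore gene in kidney with 89.1% of the sum, at 17.8, 14.9, 9.85, 14.8 and 7.86 CPM, a spread wider than that of most members. Scn10a, best known from sensory neurons, reached 2.75 ± 0.598 CPM in heart and 0.542 ± 0.118 CPM in brain (-2.34, SE 0.31, adjusted p = 1.41e-07). Further pores above 1 CPM were Scn3a (44.5 ± 5.48 CPM in brain, 2.45 ± 0.427 in heart), Scn9a (4.63 ± 0.720 in brain) and Scn7a (52.2 ± 7.36 in heart, 4.86 ± 0.693 in brain). Scn3a, Scn2a, Scn1a, Scn9a and Scn7a lie in a row on chromosome 2, and Scn7a alone of these was higher in heart than in brain.

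All 4 sodium channel β genes were highest in brain. Scn3b stood at 81.6 ± 9.26 CPM in brain and 1.80 ± 1.029 in heart. Scn4b, which encodes a β subunit linked to resurgent sodium current, was the least tissue-bound member of this role. It led in heart (157, 174, 161, 168, 130 and 195 CPM) and in kidney (59.7, 72.0, 72.5, 65.3 and 63.6 CPM), and its excess in brain over heart was 0.42 on the log2 scale (SE 0.13, adjusted p = 0.00594), about the size of the median difference of all genes on this scale (0.44). Its neighbour on chromosome 9, Scn2b, read 266 ± 21.0 CPM in brain and 0.747 ± 0.235 CPM in heart, and 1.51 ± 0.352 in kidney. In tissues of mixed cells, fewer cells of a type and less RNA per cell cannot be told apart, here or below.

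The second question was whether 14 days of Cmpd60 altered these genes. In heart, Cacna1h and Scn4a fell and Cacnb1 rose, the 3 members of 31 tested that passed at an adjusted p under 0.05, beside 1.18% of all genes tested. The other 9 members had too few counts in heart to be tested (Cacna1f, Cacna2d4, Cacng1, Cacng2, Cacng3, Cacng5, Cacng8, Scn1a and Scn11a). Together with 8 others that had an unadjusted p under 0.05 they make 11 (5 higher, 6 lower), beside 13.5% of all genes (7.28% higher, 6.22% lower), and the median log2 fold change of the tested members was -0.01 against -0.00144 for all genes.

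Cacna1h (ENSMUSG00000024112), the T-type calcium channel pore, read 40.6, 35.6, 37.6, 61.0 and 37.1 CPM in Cmpd60 libraries 68 to 72 and 62.3, 63, 63.6, 86.3, 73.6 and 80.4 CPM in vehicle libraries 62 to 67. All treated hearts were below all vehicle hearts, with library 71 closest to them. The log2 fold change was -0.77 (SE 0.13, 95% interval -1.05 to -0.49, edgeR adjusted p = 0.015). Scn4a (ENSMUSG00000001027) read 53.1, 41.3, 76.8, 55.1 and 44.7 CPM with Cmpd60 and 90.1, 101, 80.8, 86.2, 73.5 and 97.8 CPM with vehicle. In 4 of the 5 treated hearts Scn4a was below every vehicle heart, and library 70 overlapped (-0.72, SE 0.12, adjusted p = 0.015). Cacnb1 (ENSMUSG00000020882), the β gene best known from skeletal muscle, read 10.8, 10.6, 12.2, 9.27 and 13.8 CPM with Cmpd60 and 6.83, 7.55, 7.98, 7.73, 5.70 and 6.90 CPM with vehicle, so the groups did not overlap (0.66, SE 0.12, adjusted p = 0.0185). Groups did not overlap for 3 members, beside 2.43% of all genes.

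Promoter windows of a gene that fell and of β genes with higher means with Cmpd60 are shown to give the sequence at an annotated start of each. The sequences are RefSeq's for GRCm38.p6, from 250 bases before to 50 bases after the annotated start, and 30 of the 40 members matched an entry (Cacna1h did not). Capitals mark the GC box letters GGGCGG, searched on both strands.
Scn4a, chr11:106349341-106349640, minus strand: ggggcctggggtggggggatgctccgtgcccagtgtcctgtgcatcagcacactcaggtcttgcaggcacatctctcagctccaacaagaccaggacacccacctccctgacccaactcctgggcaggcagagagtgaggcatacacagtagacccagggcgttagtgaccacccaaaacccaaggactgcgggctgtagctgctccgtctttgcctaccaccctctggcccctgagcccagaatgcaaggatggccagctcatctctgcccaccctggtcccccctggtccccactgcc
Cacnb1, chr11:98022578-98022877, minus strand: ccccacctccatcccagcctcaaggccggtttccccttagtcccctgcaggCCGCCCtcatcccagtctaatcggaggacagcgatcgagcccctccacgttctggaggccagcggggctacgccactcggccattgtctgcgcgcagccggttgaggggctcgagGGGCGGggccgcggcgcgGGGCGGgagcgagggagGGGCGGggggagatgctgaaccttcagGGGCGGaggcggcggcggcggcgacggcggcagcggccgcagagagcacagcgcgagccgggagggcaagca
Cacnb3, chr15:98634517-98634816, plus strand: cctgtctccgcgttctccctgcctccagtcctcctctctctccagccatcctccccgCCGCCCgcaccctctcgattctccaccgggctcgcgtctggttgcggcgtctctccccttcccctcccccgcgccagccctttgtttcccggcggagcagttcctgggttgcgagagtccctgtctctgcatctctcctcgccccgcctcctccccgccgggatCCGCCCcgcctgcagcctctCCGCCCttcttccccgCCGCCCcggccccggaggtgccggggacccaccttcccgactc
RefSeq's Scn4a gene spans 106317545 to 106365559 on chromosome 11, and its Cacnb3 gene 98628436 to 98644536 on chromosome 15. The Scn4a and Cacnb3 windows shown thus lie inside the gene and not at its outermost start. The Scn4a window held 4 CG dinucleotides and no GC box. The Cacnb1 window shown, the first of 2 entries, held 34 CG dinucleotides and 5 GC boxes, and the second of 2 Cacnb3 entries held 29 and 4. The entries not shown held 3 CG dinucleotides and 0 GC boxes (Cacnb1) and 7 and 1 (Cacnb3), so the window depends on the start chosen and no contrast between the genes is drawn. GGGCGG was present in 35.7% of all 32851 promoter windows and in 16 of 41 member windows, TATAAA in 13.6% and in 2, so the letters are common and their presence describes the sequence only. The palindrome CAGCTG was present in 16.3% of all windows, in 13 member windows and in none of the 3 shown.

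Of the members that the naming rule adds in heart, none passed in the main edgeR fit. Cacng6 was 8.95 ± 1.15 CPM against 6.25 ± 1.41 (0.50, SE 0.16, edgeR adjusted p = 0.139), and it passed with DESeq2 (adjusted p = 0.0477). Cacnb3 was 6.92 ± 1.55 against 4.87 ± 1.14 (0.50, SE 0.18, edgeR adjusted p = 0.201). The α2δ genes had lower means with Cmpd60: Cacna2d2 was 13.3 ± 7.41 CPM against 22 ± 6.72 (-0.76, SE 0.28, adjusted p = 0.227) and Cacna2d3 3.54 ± 1.14 against 5.04 ± 1.42 (-0.53, SE 0.23, adjusted p = 0.325). Cacna2d2 was highest among treated hearts in library 71 (26.0 CPM), the same library that was highest for Cacna1h. Without library 71 it passed, at -1.14 (adjusted p = 0.0226). Cacna2d1, the leading α2δ gene of heart, gave a log2 fold change of -0.14 (95% interval -0.32 to 0.04). The leading pore gene Cacna1c read 390 to 515 CPM with Cmpd60 and 359 to 486 with vehicle. The leading β gene Cacnb2 read 88.6 to 119 and 85.4 to 107 CPM, so both overlapped, and neither passed.

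**Figure D2:**
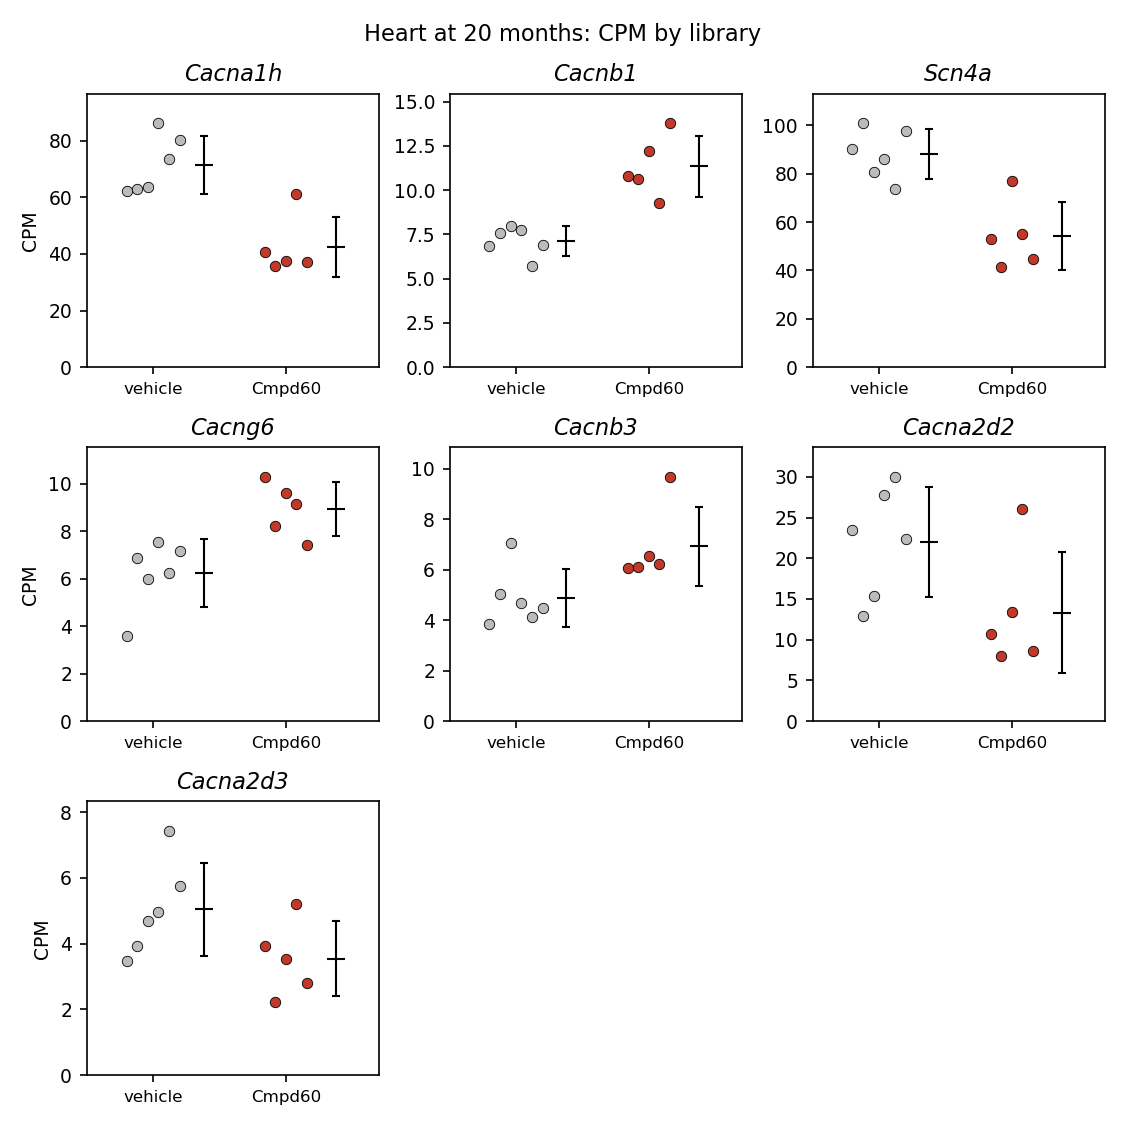
CPM of 7 channel genes in each heart library at 20 months, vehicle (grey, n = 6) and Cmpd60 (red, n = 5), with the mean and SD beside the points and all axes starting at 0. Cacna1h and Cacnb1 show no overlap between the groups, and library 71 stands above the other treated hearts for Cacna1h and Cacna2d2.

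In the fit of all 34 aged libraries Scn4a no longer passed (-0.70, adjusted p = 0.121), while Cacna1h and Cacnb1 did. The heart calls also depended on library 72. Without this Cmpd60 library, 0 members passed, with adjusted p = 0.0575 for Cacna1h, 0.058 for Scn4a and 0.0637 for Cacnb1 (log2 fold changes -0.73, -0.66 and 0.57). The sum of 4 atrial markers (Myl7, Myl4, Nppa and Sln) had a lower median with Cmpd60, but the groups overlapped. It ran from 2672 to 7243 CPM with Cmpd60 (median 3277) and from 3480 to 7963 with vehicle (median 4244). Among these markers Myl7 gave -0.71 (SE 0.20, adjusted p = 0.0967), which did not pass, and the others are not given here. The highest sums were in Cmpd60 library 71 and vehicle library 66. Leaving out both, an alternative chosen after seeing the data, gave 4 passing members, with Cacna1h at -0.92, Scn4a at -0.76 and Cacnb1 at 0.68. The atrial sums of the remaining hearts were 2672 to 5014 CPM with Cmpd60 and 3480 to 4405 with vehicle, with 3 of the 4 treated hearts below every vehicle heart and library 72 above all of them, and the part of atrial content in these values was not tested.

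In brain at 20 months, 0 of 39 tested members passed in edgeR, beside 0.0205% of all genes. At an unadjusted p under 0.05 stood 9 (7 higher, 2 lower), beside 13.8% of all genes (7.32% higher, 6.47% lower), and the member median was 0.09 against 0.00719 for all genes. DESeq2 called 2 members, Scn3b and Scn10a, and limma-voom 0. Scn10a, under the level set for naming, was 1.11 ± 0.451 CPM against 0.542 ± 0.118 (0.997, SE 0.28, edgeR adjusted p = 0.153). Scn3b, the sodium channel β3 gene, read 105, 107, 104, 82.4, 110 and 107 CPM in Cmpd60 libraries 33 to 38 and 90.3, 90.3, 88.4, 71.9, 78.1 and 70.5 CPM in vehicle libraries 27 to 32. In Scn3b, 5 of the 6 treated brains lay above every vehicle brain, library 36 being the exception (0.30, SE 0.08, edgeR adjusted p = 0.12). It passed without library 36 or without vehicle library 29, at adjusted p = 0.0422 at the lowest. Cacna1e was 250 ± 40.01 CPM against 197 ± 28.6 (0.32, SE 0.10, adjusted p = 0.196) and likewise passed without library 29 (adjusted p = 0.0485).

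The β genes Cacnb3 and Cacnb1 had higher means in the treated brains as well. Of the 4 calcium channel β genes, 3 had a log2 fold change above 0 in brain and 1 below, with Cacnb4 at 0.04. Cacnb3 read 157, 133, 134, 137, 161 and 131 CPM with Cmpd60 and 129, 128, 120, 123, 126 and 118 CPM with vehicle, without overlap (0.17, SE 0.06, adjusted p = 0.224), beside 1.07% of all genes without overlap. Cacnb1 was 95.6 ± 10.2 CPM against 82.7 ± 2.36 (0.18, SE 0.06, adjusted p = 0.23), and 5 of 6 treated brains were above every vehicle brain. Cacng3, an AMPA receptor auxiliary gene, was 55.7 ± 6.48 CPM against 47.3 ± 2.86 (0.21, SE 0.07, adjusted p = 0.219), and Cacna2d1 was 185.5 ± 25.2 against 158 ± 9.37 (0.20, SE 0.07, adjusted p = 0.247). The T-type gene Cacna1g was 121.5 ± 6.60 CPM against 131 ± 7.41 (-0.14, SE 0.05, adjusted p = 0.243), and Scn2b was 247.5 ± 16.5 against 266 ± 21.0 (-0.13, SE 0.06, adjusted p = 0.322). Library 33 had the highest treated value for Cacna1e (316 CPM), Cacng3 (64.5), Cacna2d1 (228) and Scn2b (280).

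Markers of brain regions differed between the same libraries. The 5 cerebellar markers (Gabra6, Cbln3, Pcp2, Car8 and Zic1) summed to 252 to 624 CPM with Cmpd60 and 483 to 780 with vehicle, and libraries 33, 34 and 37 were the lowest at 252, 310 and 271 CPM. The 9 neuronal markers summed to 5693 to 6851 CPM with Cmpd60 and 5228 to 6080 with vehicle, with library 33 the highest. Median depth was 38855584.5 counts in treated and 28188597.5 counts in vehicle brains. The part of any of these in the channel differences was not tested.

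In kidney, 0 of 30 tested members passed in edgeR, beside 0.3% of all genes, and 7 had an unadjusted p under 0.05 (4 higher, 3 lower), beside 11.3% (5.71% higher, 5.63% lower). The member median was -0.12 against -8.01e-05 for all genes. DESeq2 called 1 member, limma-voom called 0, and a fit of all 34 aged libraries, which shares the spread over tissues, called 4, among them Cacna1e, Cacnb3 and Cacng7. In edgeR 1 member passed without library 52. Cacnb3 read 13.9, 14.4, 13.8, 15.5, 22.9 and 21.6 CPM in Cmpd60 libraries 50 to 55 and 13.3, 13.4, 11, 11.3 and 11.8 CPM in vehicle libraries 45 to 49, without overlap (0.48, SE 0.15, edgeR adjusted p = 0.218), beside 2.31% of all genes. Cacna2d1 was 6.84 ± 1.31 CPM against 9.03 ± 1.64 (-0.40, SE 0.16, adjusted p = 0.376) and Cacng7 3.56 ± 0.638 against 2.53 ± 0.565 (0.49, SE 0.20, adjusted p = 0.382). Libraries 54 and 55, highest for Cacnb3 and Cacng7, were also the lowest for the 4 proximal tubule markers (5609 and 3256 CPM, against 6404 to 8005 in vehicle), and library 54 was the highest for 4 leukocyte markers (337 CPM). Their part in these values was not tested.

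Set side by side, the calcium channel β genes Cacnb3 and Cacnb1 had higher means with Cmpd60 in all 3 aged tissues. Cacnb3 gave log2 fold changes of 0.17 in brain, 0.50 in heart and 0.48 in kidney, each with an unadjusted p under 0.05 (0.00902, 0.0117 and 0.00547) and none with an adjusted p under 0.05. Cacnb1 gave 0.18, 0.66 and 0.25, and only the heart value passed. Not all β genes shared this direction: Cacnb4 gave 0.04, 0.37 and -0.09, and in kidney 2 of the 4 were higher and 2 lower. Of the other named genes, Cacna2d1 was 0.20 in brain, -0.14 in heart and -0.40 in kidney and Cacna1h was 0.15, -0.77 and 0.00. Cacna1e was 0.32 in brain and, at means under 2 CPM, -0.99 in heart and -1.21 in kidney. Scn2b was -0.13, 0.04 and -0.28, Cacng7 was -0.06, -0.01 and 0.49, and Cacna2d2 was -0.01, -0.76 and -0.30. By the study's methods there were fewer aged mice than aged libraries, so tissues shared mice, and the labels do not say which.

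**Figure D3:**
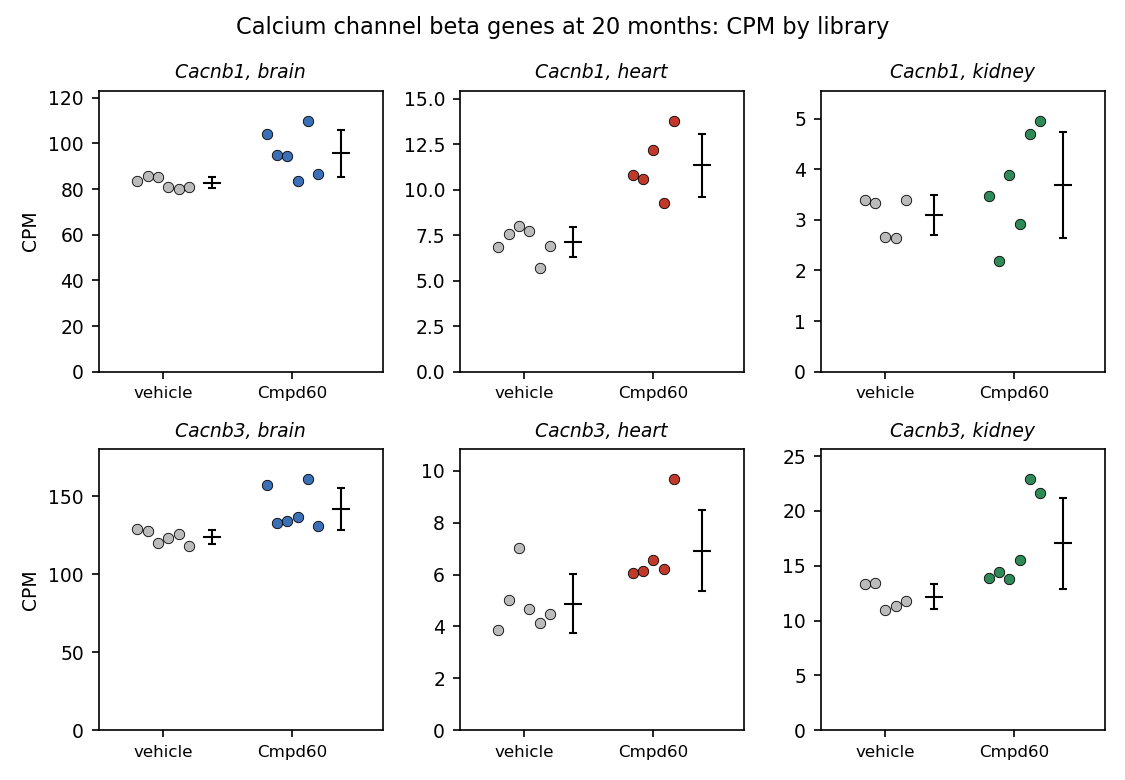
CPM of Cacnb1 and Cacnb3 in each library of brain, heart and kidney at 20 months, vehicle (grey) and Cmpd60 (coloured), with mean and SD and every axis starting at 0. Cacnb1 shows no overlap in heart, and Cacnb3 shows none in brain and kidney.

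The difference in response between tissues was tested as an interaction in a fit of all 34 aged libraries, which treats tissues of shared mice as independent here and in the tissue comparisons above. In it 0 members passed in any of the 3 pairs in edgeR, beside 0.0517% (brain against heart), 0.0885% (brain against kidney) and 0.35% (heart against kidney) of all genes. At an unadjusted p under 0.05 stood 16, 7 and 8 members, beside 9.08%, 10% and 11.7% of all genes. All 40 members were tested in this fit, although only 31 had enough counts to be tested in heart alone and 30 in kidney alone. The 16 thus include members near 0 in heart. Examples are Scn11a (5.25) and Scn9a (3.50), with vehicle heart means of 0.0878 and 0.201 CPM, for which a difference in response says little. DESeq2 called 2, 3 and 2, and limma-voom called 1, 0 and 0. For Cacna1h the response in brain exceeded that in heart by 0.93 on the log2 scale (SE 0.23, edgeR adjusted p = 0.118). It passed in edgeR without heart library 71 (1.10, adjusted p = 0.0353), in DESeq2 (adjusted p = 0.0237) and in limma-voom. For Cacna1e, brain against kidney gave 1.60 (SE 0.38, adjusted p = 0.0929). It passed in 2 of 23 fits with a library left out, among them the fit without kidney library 52. Its vehicle kidney mean was 1.38 CPM, so this difference rests on few kidney counts. Scn4a was among the members tested in this fit, but its brain counts were near 0, so its heart response cannot be set against brain.

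**Figure D4:**
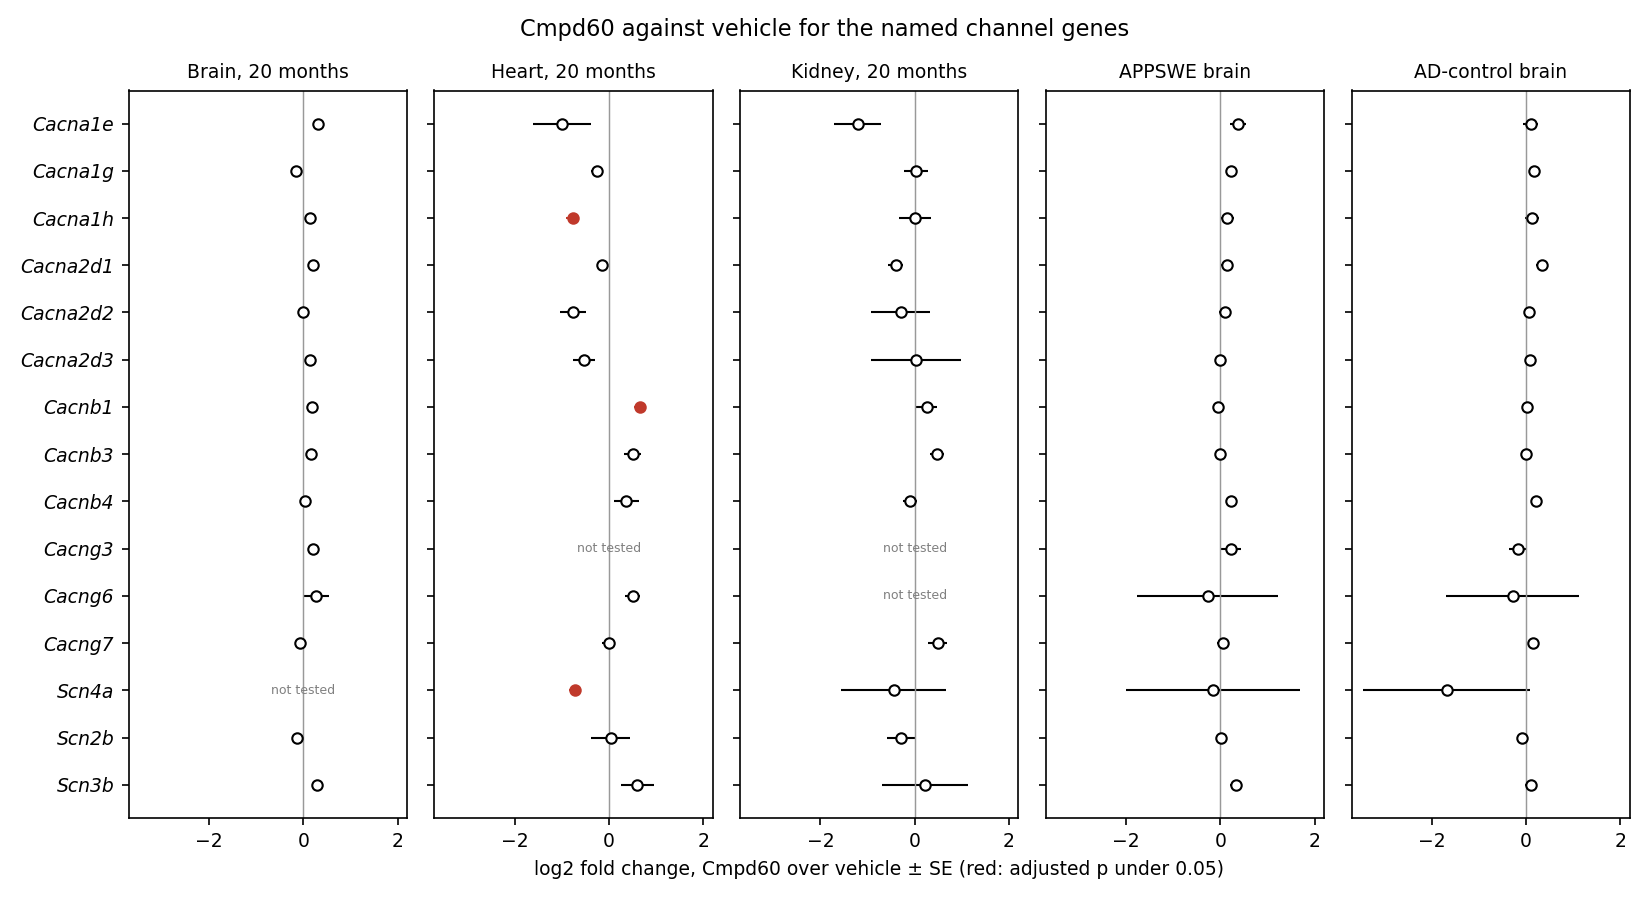
Log2 fold change of Cmpd60 over vehicle with SE (horizontal axis) for 15 channel genes named in a Cmpd60 comparison, in 5 panels for brain, heart and kidney at 20 months and for APPSWE and AD-control brain. Red points passed at an adjusted p under 0.05 and are found in the heart panel (Cacna1h, Cacnb1 and Scn4a).

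In the APPSWE cohort the question was whether the same treatment altered the channel genes in younger brains with and without the transgene. In edgeR 0 of 40 members passed in either genotype, beside 0% of all genes in both, and DESeq2 and limma-voom also called 0 members in both. The coefficient of variation between libraries, estimated by edgeR in common for all genes, was 0.727 in this fit and 0.114 in aged brain. An absence of calls therefore says less here. An unadjusted p under 0.05 was reached by 4 members in APPSWE mice, all higher (beside 9.53% of all genes, 7.11% higher), and by 2 in AD-control mice, both higher (beside 3.69%, 2.47% higher). The member medians were 0.12 and 0.06, against 0.0319 and 0.0217 for all genes. The genotypes share no library, but 1 fit supplies the spread for both.

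Cacnb4, the β gene whose loss causes the lethargic mouse, was named in both. In APPSWE mice it read 327, 349, 309 and 332 CPM with Cmpd60 and 292, 298, 288, 257 and 270 CPM with vehicle, without overlap (0.23, SE 0.08, adjusted p = 0.444), beside 2.3% of all genes. In AD-control mice it read 313, 293, 365, 311 and 295 CPM with Cmpd60 and 251, 261, 296, 260 and 289 CPM with vehicle, and 3 of 5 treated brains were above every vehicle brain (0.22, SE 0.08, adjusted p = 1). The disputed library read 293 CPM, within the APPSWE vehicle range and below the APPSWE Cmpd60 range. In aged brain the same gene gave 0.04 (95% interval -0.11 to 0.20).

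Scn3b and Cacna1e were named in APPSWE as in aged brain. Scn3b was 122 ± 5.74 CPM with Cmpd60 against 97.3 ± 23.3 with vehicle (0.33, SE 0.14, adjusted p = 0.456), and the lowest of the 5 vehicle values were 67.4 and 79.3 CPM. Cacna1e was 236 ± 40.6 against 182 ± 53.3 (0.37, SE 0.16, adjusted p = 0.474). Without the 5 cohort libraries with under 17000 genes detected, an alternative chosen after seeing the data, the APPSWE value of Scn3b was 0.10 and that of Cacna1e 0.22, so both depended on these libraries. The disputed library read 130 CPM for Scn3b, above the APPSWE vehicle range and level with the highest APPSWE Cmpd60 value. It read 243 for Cacna1e, within both ranges. With this library as vehicle, edgeR's unadjusted p was 0.0755 for Scn3b, 0.0793 for Cacna1e and 0.0209 for Cacna1g. With it as Cmpd60 these were 0.0108, 0.0184 and 0.177, so naming these genes depends on its treatment. In AD-control mice the same genes gave 0.11 (95% interval -0.16 to 0.38) and 0.10 (-0.22 to 0.42). Cacna1g was 174 ± 23.4 CPM against 148 ± 24.4 in APPSWE mice (0.23, SE 0.11, adjusted p = 0.517), the opposite sign to aged brain (-0.14), and neither passed. It was 0.37 (adjusted p = 0.298) without the 5 libraries. Cacna2d1 was named in AD-control mice, at 181, 207, 215, 169 and 203 CPM with Cmpd60 and 161, 150, 177, 168 and 120 CPM with vehicle (0.33, SE 0.13, adjusted p = 1), and gave 0.14 (95% interval -0.14 to 0.42) in APPSWE mice.

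**Figure D5:**
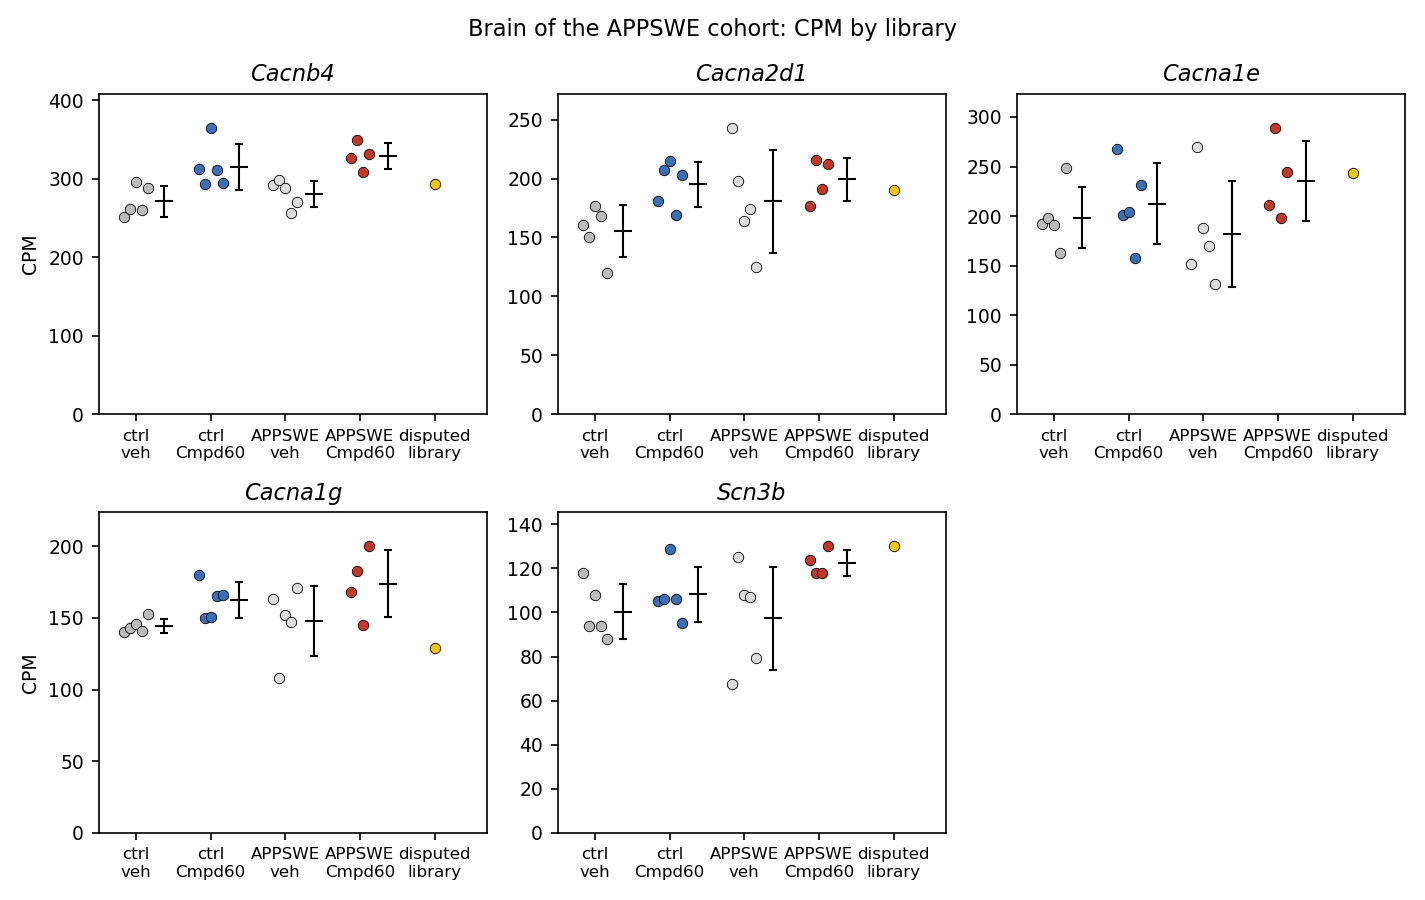
CPM of 5 channel genes in each brain library of the APPSWE cohort: AD-control vehicle and Cmpd60 (n = 5 each), APPSWE vehicle (n = 5), APPSWE Cmpd60 (n = 4) and the disputed library, with mean and SD and all axes starting at 0. Cacnb4 shows no overlap between the APPSWE groups, and the other genes overlap.

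The genes that passed in heart did not pass in these brains. Cacna1h gave 0.14 in APPSWE (95% interval -0.17 to 0.45) and 0.12 in AD-control mice (-0.17 to 0.42), Cacnb1 gave -0.04 (-0.25 to 0.17) and 0.02 (-0.18 to 0.22), and Cacnb3 gave 0.00 (-0.21 to 0.21) and -0.01 (-0.21 to 0.19). Scn4a had few brain counts, with intervals from -3.93 to 3.62 and from -5.32 to 1.96. Between genotypes, 0 of 40 members passed with vehicle (beside 0.00859% of all genes) or with Cmpd60 (0%), 0 passed for the interaction of genotype and treatment (0%), and 0 had an unadjusted p under 0.05 in any of the 3, beside 8.74%, 1.36% and 5.11% of all genes. DESeq2 and limma-voom also called 0 in each. Cacnb4 differed by 0.05 between vehicle genotypes (95% interval -0.11 to 0.21) and Scn3b by -0.04 (-0.31 to 0.22). Single libraries stood out for low members: 1 AD-control vehicle library read 8.12 CPM for Cacna1s and 106 for Cacnb2, where the other 4 vehicle libraries read 1.47 to 1.81 and 57.6 to 65.9.

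Of 43 matched channel partner genes, which encode anchoring, calcium-sensing and release proteins, 1 passed in a Cmpd60 comparison. Calm2, a calmodulin gene, rose in heart to 162 ± 23.7 CPM from 119 ± 6.86 (0.43, SE 0.09, adjusted p = 0.028), the 1 of 41 tested there that passed, beside 1.18% of all genes. In edgeR 0 of 43 passed in aged brain, 0 of 39 tested in kidney, and 0 of 43 in each genotype of the APPSWE cohort. At an unadjusted p under 0.05 stood 11, 5, 2 and 1 of them, beside 13.8%, 11.3%, 9.53% and 3.69% of all genes.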

How the data were processed

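Per the labels, poly(A) RNA was sequenced from directional libraries. The submitters' processing notes name FastQC, Trimmomatic 0.32, HISAT2 2.1.0 and HTSeq 0.11.0, and the genome build of the alignment is not given in the sources used here. The deposited values are raw counts per Ensembl gene and library made by the authors with HTSeq, without normalization, and the 5 summary lines at the end of each file were left out.

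Symbols were found for 32651 of 54232 gene identifiers. Chromosomes, neighbours and promoters are RefSeq's for GRCm38.p6 and exon lengths come from an older GENCODE annotation, neither of which is known to be that of the files, so levels per kilobase are approximate. A gene was tested where 3 or more fitted libraries had over 2 counts each, with edgeR's quasi-likelihood test (edgeR 4.0.16, R 4.3.3, TMM scaling), with Benjamini-Hochberg adjustment over all genes tested and a threshold of 0.05. Each tissue was fitted alone for Cmpd60, the 34 aged libraries together for tissues and for differences in response, and the 20 libraries of the APPSWE cohort together. Printed CPM values use TMM-scaled totals over all 34 aged libraries, or over the cohort, whereas the fold changes within a tissue use that tissue's own scaling. The scalings differ between libraries of a tissue by up to 5.19% (brain), 7.41% (heart) and 0.834% (kidney). Alternatives were DESeq2 1.42.0, limma-voom (limma 3.58.1), other filters and scalings, other sets of libraries and each library left out. The fits were also run on simulated data with the same spread for every gene. That spread was smaller than the one estimated for heart, kidney and the APPSWE cohort. The simulation checked the procedure and not its power in these data.

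Named genes were those with an adjusted p under 0.05 and, where fewer than 4 passed, up to 8 with the smallest unadjusted p under 0.05 and a mean of at least 1 CPM. Some members enter the counts and medians but are not reported by name here. The members and lists were chosen with earlier results of these data known. The labels number the libraries but do not tie them to named mice, so p-values measure the spread between libraries, which may be technical in part. Lower bounds against groups without counts use 3 counts per library and cover counting error only.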

Additional observations from a re-analysis of the deposited data

Results flagged for a closer look

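In 6 of 56 groups of named genes, the highest or lowest library stood apart from the others by Dixon's test at the 95% level, where chance flags about 1 in 20 groups. Cacna1h was 61 CPM in heart Cmpd60 library 71, where the next value was 40.6. Cacnb3 was 9.68 CPM in heart Cmpd60 library 72 (next 6.55) and 7.04 in heart vehicle library 64 (next 5.03). Cacnb4 was 365 CPM in AD-control Cmpd60 library 156 (next 313). Scn2b was 280 CPM in brain Cmpd60 library 33 (next 246), and Scn3b was 82.4 in brain Cmpd60 library 36 (next 104).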

How the results depend on the processing

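Counts of members called in the Cmpd60 comparisons depended on the test. With DESeq2 the count was 2 in brain, 6 in heart and 1 in kidney, and 2, 3 and 2 for the differences in response between brain and heart, brain and kidney, and heart and kidney. Limma-voom called 1 member for brain against heart. Without a filter heart gave 5, and the fit of all 34 aged libraries gave kidney 4 and heart 2, Scn4a being lost. Leaving out 1 library gave 0 to 2 members in brain, 0 to 4 in heart, 0 to 1 in kidney, 0 to 1, 0 to 2 and 0 to 1 for the 3 differences in response, and 0 to 0 in the 5 APPSWE cohort comparisons. For the differences in response, 1 member passed without kidney library 54 or 48 (brain against kidney) and without heart library 68 or kidney library 50 (heart against kidney). The tissue counts with 1 library left out ran from 38 to 39 (brain against heart), 37 to 38 (brain against kidney) and 31 to 34 (heart against kidney), and under the other alternatives from 37 to 39, 37 to 38 and 29 to 34. Of the single-gene fold changes under all alternatives, 1246 kept direction and side of the threshold, 30 passed newly, 4 no longer passed and 0 turned. Leaving out heart libraries 66 and 71, and the 5 cohort libraries with under 17000 genes detected, were chosen after seeing the data, and the latter gave 0 members. The causes were not tested. No paired analysis was possible because the library numbers in the labels are not shared between groups.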
